A study of Mus musculus with 24 samples.

Results

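The proneural basic helix-loop-helix (bHLH) factors described here are 8 genes, *Neurog1*, *Neurog2*, *Atoh1*, *Neurod1*, *Neurod4*, *Olig3*, *Bhlhe22* and *Atoh7*, of 54446 genes counted. They were chosen by name as transcription factors that start or carry forward neuronal differentiation. RNA was sequenced from brains of *Tfap2b*+/+ control and *Tfap2b*-/- mutant mouse embryos at E14.5, each divided into the secondary prosencephalon (SP) and a piece with diencephalon, midbrain and hindbrain (DMH). There were 12 embryos, 3 per sex and genotype, which gave 24 libraries. The embryos came from crosses of *Tfap2b*+/- parents, and the mutants carried on both alleles a PGK-neo cassette in an exon of *Tfap2b*, which encodes an AP-2 transcription factor. The deletion was constitutive, so it was not limited to a cell type.

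In the developing nervous system, proneural bHLH proteins pair with E proteins such as *Tcf3*, *Tcf4* and *Tcf12*, bind short E-box sequences and switch on genes that make a progenitor leave the cell cycle and become a neuron. Id proteins block that pairing. Through Notch ligands such as *Dll1*, a cell with much proneural protein raises *Hes* repressors in its neighbours, which keeps these as progenitors. Different zones use different factors. *Neurog2* is the main proneural gene of the dorsal forebrain, *Atoh1* and *Olig3* mark the rhombic lip of the hindbrain, and *Atoh7* is best known from the retina.

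Depth was 24717386 to 66844175 counts on genes per library. Values are given as CPM, counts scaled to a common library size, and 3 counts, the floor used for bounds, equalled 0.0455 to 0.123 CPM. *Tfap2b* was at 281 to 435 CPM in the DMH of the 6 controls and at 50.4 to 56.6 CPM in that of the 6 mutants. In the SP it was at 3.48 to 4.19 and 2.75 to 4.72 CPM, so that the SP libraries do not check the genotype labels. A list of 7 SP markers summed to 674 to 1017 CPM in SP and to 76.8 to 197 CPM in DMH libraries, and 7 DMH markers to 15.9 to 181 and 632 to 1329 CPM. The comparisons below leave out female mutant 3 unless it is named and so rest on 22 libraries. Its DMH library held 624 CPM of skeletal muscle markers, where the 11 others held at most 8.34. Both libraries of female control 2 held Y-linked transcripts, and the label was kept.

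The DMH pieces differed in their *Hox* transcripts, which mark the hindbrain and spinal cord. The summed level of 39 *Hox* genes was 0.351 to 20.1 CPM in 4 DMH libraries, called *Hox*-poor here, and 365 to 610 CPM in the other 8, called *Hox*-rich. The *Hox*-poor pieces came from female control 1, female mutants 1 and 2 and male mutant 2. These classes were set from the libraries at 100 CPM and are not groups of the study. As 3 of the 4 *Hox*-poor libraries are mutants, genotype and *Hox* content are partly confounded in the DMH.

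The promoters of 4 of the 5 members called between *Hox*-rich and *Hox*-poor DMH pieces are printed, the first pair lower and the second pair higher in the *Hox*-rich ones. The fifth, *Neurod4*, has 2 such windows in RefSeq and is not shown. Each window is 300 bases of RefSeq sequence on GRCm38.p6, 5′ to 3′ on the strand of the gene, and reaches from 250 bases before the RefSeq start to 50 bases after it. Capitals mark the E-box CANNTG, the sequence class bound by the proneural factors themselves. The windows are chr13:56252131-56252430 on the minus strand for *Neurog1*, chr3:127632886-127633185 on the plus strand for *Neurog2*, chr6:64728875-64729174 on the plus strand for *Atoh1* and chr10:63099535-63099834 on the plus strand for *Atoh7*.
Neurog1: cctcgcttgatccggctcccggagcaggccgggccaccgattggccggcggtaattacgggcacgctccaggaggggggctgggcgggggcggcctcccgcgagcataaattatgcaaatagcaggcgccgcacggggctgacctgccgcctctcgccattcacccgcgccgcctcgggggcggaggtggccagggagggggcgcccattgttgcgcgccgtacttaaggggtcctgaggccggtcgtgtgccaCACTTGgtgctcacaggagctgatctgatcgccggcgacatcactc
Neurog2: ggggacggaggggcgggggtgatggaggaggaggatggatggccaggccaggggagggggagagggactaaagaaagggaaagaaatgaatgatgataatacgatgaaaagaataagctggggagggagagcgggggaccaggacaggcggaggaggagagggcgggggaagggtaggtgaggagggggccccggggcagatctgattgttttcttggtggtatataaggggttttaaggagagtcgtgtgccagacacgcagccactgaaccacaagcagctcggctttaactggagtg
Atoh1: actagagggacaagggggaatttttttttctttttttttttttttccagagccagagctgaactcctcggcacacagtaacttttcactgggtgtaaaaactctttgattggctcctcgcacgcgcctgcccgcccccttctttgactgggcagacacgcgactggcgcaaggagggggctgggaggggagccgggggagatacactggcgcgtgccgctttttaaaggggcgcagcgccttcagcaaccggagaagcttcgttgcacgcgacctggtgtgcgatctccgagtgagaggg
Atoh7: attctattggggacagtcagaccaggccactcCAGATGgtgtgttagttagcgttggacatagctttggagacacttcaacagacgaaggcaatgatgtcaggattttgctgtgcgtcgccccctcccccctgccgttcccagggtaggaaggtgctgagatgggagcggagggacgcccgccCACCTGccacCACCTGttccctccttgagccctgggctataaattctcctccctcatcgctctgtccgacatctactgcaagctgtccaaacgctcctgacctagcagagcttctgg

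The *Atoh7* window held 3 E-boxes, 1 CAGATG and 2 CACCTG, and that of *Neurog1* held 1, CACTTG. The windows of *Neurog2* and *Atoh1* held none. Of 32851 promoters of this length 72.3% had a CANNTG, which reads the same on both strands, so a single E-box is common. The AP-2 palindrome GCCNNNGGC, also searched on both strands, was found in 16.6% of all promoters and, of the 7 members with a window, in *Atoh7* alone. In *Atoh7* the RefSeq start lies 134 bases inside the gene as GENCODE places it, so that both CACCTG and the AP-2 palindrome fall within the annotated gene. A match of letters is a description of the sequence and not a bound site.

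On GENCODE vM21 (GRCm38) the members are short genes with 1 or 2 exon blocks. *Neurog1* lies at chr13:56250478-56252163, *Neurog2* at chr3:127633135-127635631, *Atoh1* at chr6:64729125-64731245 and *Neurod1* at chr2:79452521-79456751. *Neurod4* lies at chr10:130268152-130280240, *Olig3* at chr10:19356533-19358604, *Bhlhe22* at chr3:18054174-18057517 and *Atoh7* at chr10:63099651-63101279. *Neurod1* overlaps *Cerkl* on its own strand and *Gm26755* on the other, so its counts are less certain than those of the other members, which overlap no annotated gene.

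Compared per length, *Neurog2* was the most abundant member in the SP of the controls at 68.0 ± 9.06 CPM per kb (SD, n = 6). *Bhlhe22*, a transcriptional repressor of postmitotic neurons, followed at 34.7 ± 6.21 and *Neurod1*, a factor of early neuronal differentiation, at 28.1 ± 3.95 CPM per kb, and the libraries of these neighbours in the order overlapped. *Neurog1* was at 6.04 ± 1.81 and *Neurod4* at 3.31 ± 0.609 CPM per kb, again with overlap. *Olig3* at 0.741 ± 0.293, *Atoh7* at 0.0481 ± 0.0277 and *Atoh1* at 0.00258 ± 0.00631 CPM per kb came last, each below every library of the member before it.

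In the DMH of the controls the levels lay closer together. *Neurog2* at 17.3 ± 8.38 and *Neurod1* at 13.1 ± 1.19 CPM per kb (SD, n = 6) were the highest and overlapped, and all libraries of *Neurod1* were above those of *Bhlhe22* at 7.27 ± 0.876. *Olig3* at 4.39 ± 1.44, *Neurog1* at 3.85 ± 1.59, *Atoh1* at 2.11 ± 0.523, *Neurod4* at 1.94 ± 0.570 and *Atoh7* at 0.913 ± 0.545 CPM per kb followed, and each of these overlapped its neighbour.

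**Figure D1:**
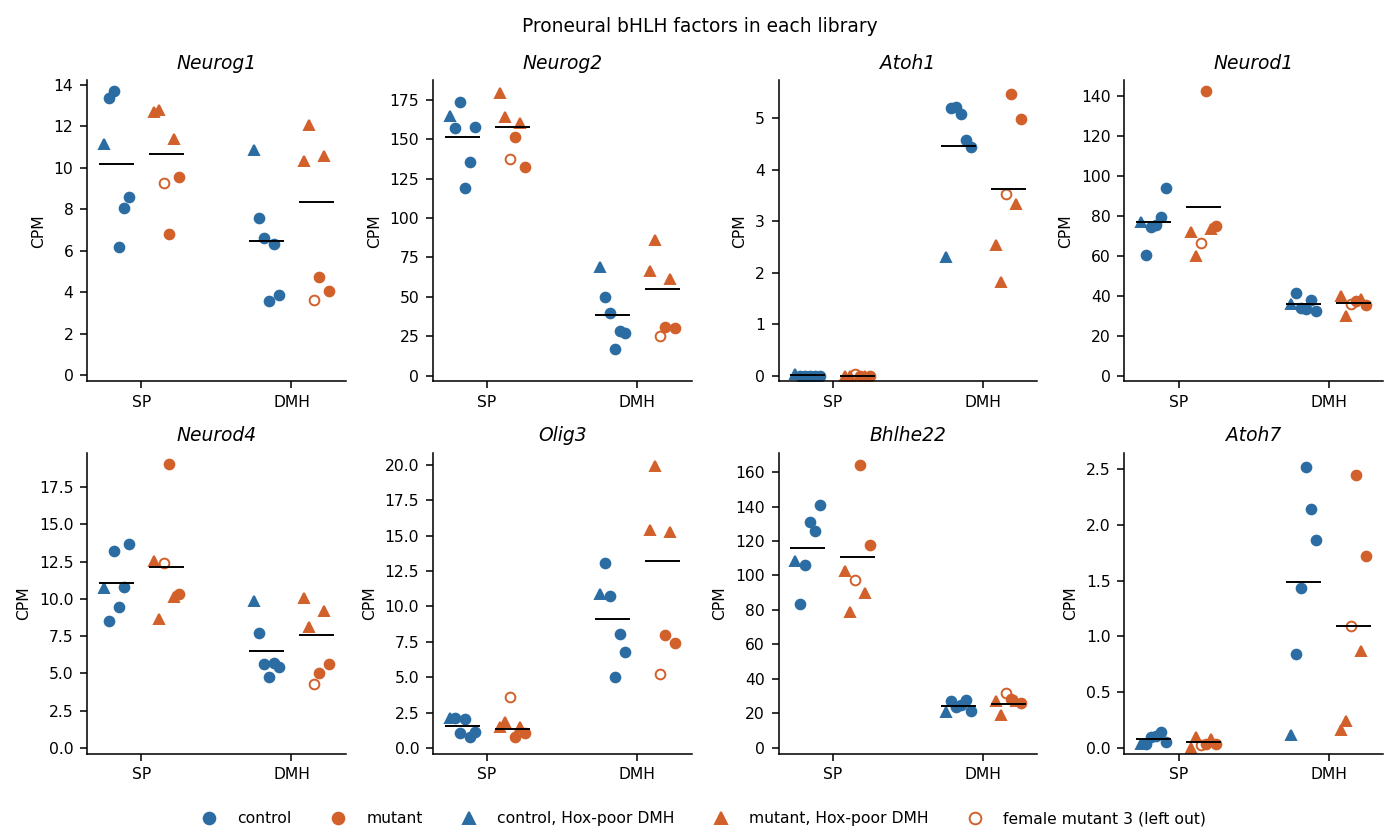
Level of each member in CPM (linear axis) in the SP and DMH libraries of controls (blue) and mutants (orange). Triangles are libraries of embryos with a *Hox*-poor DMH piece, the open circle is female mutant 3, and bars are means without it. *Neurog2*, *Neurod1* and *Bhlhe22* are higher in every SP library than in any DMH library, and *Atoh1* and *Olig3* are higher in every DMH library.

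The first comparison asked how the members differed between the regions of control embryos. All 8 members were called, which takes an FDR under 0.2 and a log2 fold change beyond 0.5 in either direction, 3 higher and 5 lower in the DMH. Among all 17530 genes tested, 36.2% were called, 21.4% higher and 14.8% lower. The members' median log2 fold change was -0.75, and that of all genes was -0.00. Fewer cells of a type and less RNA per cell cannot be told apart in such bulk samples.

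*Neurog2*, *Bhlhe22* and *Neurod1* were lower in every DMH library than in any SP library of the controls. *Neurog2* was at 119, 158 and 174 CPM in the SP (lowest, median and highest of 6) and at 17.1, 34.1 and 68.8 CPM in the DMH. No DMH library reached the SP range, and the log2 fold change was -2.08 ± 0.21 (SE, edgeR quasi-likelihood test, adjusted p = 7.08e-06). *Bhlhe22* was at 83.7, 117 and 141 CPM in the SP and at 21.01, 24.3 and 27.9 CPM in the DMH. Its log2 fold change of -2.25 ± 0.10 (adjusted p = 6.24e-10 by edgeR) also came without overlap. *Neurod1* was at 60.3, 76.1 and 94.0 against 32.6, 34.8 and 41.2 CPM, a log2 fold change of -1.11 ± 0.08 (edgeR, adjusted p = 4.96e-08). These 3 members were lower without overlap of the libraries, as were 18.8% of all genes.

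*Neurog1*, the closest relative of *Neurog2* and a determination factor of sensory neurons, differed less. It was at 6.21, 9.87 and 13.7 CPM in the SP and at 3.59, 6.49 and 10.9 CPM in the DMH, with a log2 fold change of -0.68 ± 0.15 (edgeR, adjusted p = 0.00112). *Neurod4*, which acts after the neurogenins, was at 8.49, 10.8 and 13.7 against 4.72, 5.67 and 9.82 CPM, a log2 fold change of -0.81 ± 0.16 (edgeR, adjusted p = 0.000669). The regions overlapped for both.

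*Atoh1*, *Olig3* and *Atoh7* were higher in the DMH. *Atoh1* had 1 count in the 6 SP libraries together and 899 counts in the 6 DMH libraries. The ratio per normalised depth was 920, with an exact 95% interval from 165 to 36363 that covers counting error only. In the DMH of the controls *Atoh1* was at 2.31, 4.83 and 5.22 CPM. *Olig3* was at 0.805, 1.58 and 2.13 CPM in the SP and at 5.01, 9.40 and 13.1 CPM in the DMH, a log2 fold change of 2.52 ± 0.22 (edgeR, adjusted p = 2.85e-07). Both were higher without overlap, as were 20.8% of all genes.

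*Atoh7* was low in both regions, with 16 counts in the 6 SP and 303 in the 6 DMH libraries of the controls, a ratio of 19.4 (exact 95% interval 11.7 to 34.3). It was at 0.0328, 0.0765 and 0.140 CPM in the SP and at 0.113, 1.65 and 2.52 CPM in the DMH, and the lowest DMH library, the *Hox*-poor one of female control 1, lay within the SP range. The eye markers *Tyr*, *Cryaa* and *Cryba1* were at most 0.0596, 0.0819 and 0.175 CPM in any DMH library. *Pou4f2*, which retinal ganglion cells and midbrain neurons share, was at 25.7 to 44.7 CPM there.

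In the mutants 7 of the 8 members were called between the regions, where 36.6% of 17613 genes were, and in the same directions. *Neurog2* had a log2 fold change of -1.63 ± 0.21 (edgeR, adjusted p = 7.88e-05), *Neurod1* one of -1.26 ± 0.20 (adjusted p = 0.000336) and *Bhlhe22* one of -2.16 ± 0.18 (adjusted p = 2.07e-06). *Olig3* had one of 3.23 ± 0.24 (edgeR, adjusted p = 1.16e-06) and *Neurod4* one of -0.74 ± 0.26 (adjusted p = 0.0358). *Neurog1* at -0.43 ± 0.24 missed the fold threshold (adjusted p = 0.154). *Atoh1* had 0 counts in the 5 SP and 731 in the 5 DMH libraries, at least 38.8-fold higher against a floor of 3 counts per library. *Atoh7* had 9 and 252 counts, a ratio of 25.7 (exact 95% interval 13.3 to 56.9). Among the mutants with a *Hox*-rich DMH piece alone, *Neurog1* was called as well, with a log2 fold change of -0.97 (edgeR, adjusted p = 0.0524). That fit rests on 2 embryos of one sex, male mutants 1 and 3. *Neurog1* was also called without male mutant 2 (-0.55, adjusted p = 0.0390) and without female mutant 2 (-0.53, adjusted p = 0.187). Without male mutant 1 the call of *Neurod4* was lost (-0.35, adjusted p = 0.107).

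**Figure D2:**
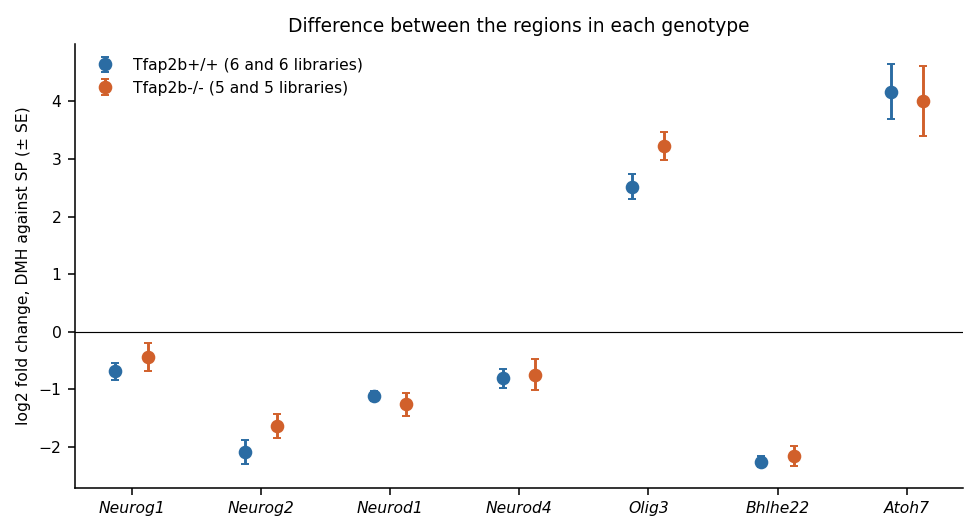
Log2 fold change of the DMH against the SP (± SE) for 7 members in *Tfap2b*+/+ and *Tfap2b*-/- embryos. *Atoh1* is not drawn because its SP libraries hold at most 1 count. In both genotypes *Olig3* and *Atoh7* lie above 0 and *Neurog2*, *Neurod1*, *Neurod4* and *Bhlhe22* below it.

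Whether the difference between the regions itself depended on genotype was tested as an interaction. No member passed among 18317 genes, of which 1 (0.00546%) was called. The smallest p-value was that of *Olig3*, whose difference between the regions was larger in the mutants by 0.73 ± 0.34 on the log2 scale (adjusted p = 1, edgeR).

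The second comparison set the 7 *Hox*-rich DMH libraries of the main set against the 4 *Hox*-poor ones, with sex and genotype in the model. Of the 8 members 5 were called, *Atoh1* and *Atoh7* higher and *Neurog1*, *Neurog2* and *Neurod4* lower in the *Hox*-rich pieces. Of 17555 genes 6.89% were called, 5.60% higher and 1.29% lower. The fold changes are adjusted for sex and genotype and need not equal the ratio of the group means.

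*Neurog1* was at 10.9 CPM in female control 1, 10.3 in female mutant 1, 12.1 in female mutant 2 and 10.6 in male mutant 2, the 4 *Hox*-poor libraries. In the 7 *Hox*-rich libraries it was at 3.59, 4.77 and 7.59 CPM (lowest, median and highest), all below the *Hox*-poor ones. The log2 fold change was -0.91 ± 0.19 (edgeR, adjusted p = 0.0185). *Neurog2* was at 68.8, 66.2, 85.9 and 61.5 CPM in the same 4 libraries and at 17.1, 30.3 and 49.9 CPM in the *Hox*-rich ones. Its log2 fold change was -0.77 ± 0.20 (edgeR, adjusted p = 0.0512), and without male mutant 2 it was -0.57 with an adjusted p of 0.246. *Neurod4* was at 9.82, 10.03, 8.14 and 9.20 CPM against 4.72, 5.61 and 7.68 CPM, with a log2 fold change of -0.65 ± 0.13 (edgeR, adjusted p = 0.0140).

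The 2 atonal homologues went the other way. *Atoh1* was at 2.31, 2.54, 1.82 and 3.34 CPM in the *Hox*-poor libraries and at 4.44, 5.08 and 5.47 CPM in the *Hox*-rich ones, a log2 fold change of 0.99 ± 0.17 (edgeR, adjusted p = 0.00620). *Atoh7* was at 0.113, 0.164, 0.246 and 0.873 CPM against 0.847, 1.87 and 2.52 CPM, a log2 fold change of 1.89 ± 0.34 (edgeR, adjusted p = 0.00885). For *Atoh7* the classes met at male mutant 2, the *Hox*-poor library with the most *Hox* transcripts (20.1 CPM), which was above the lowest *Hox*-rich library. *Atoh1* was higher without overlap, as were 10.5% of all genes, and *Neurog1*, *Neurog2* and *Neurod4* lower, as were 11.0%.

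*Olig3*, *Neurod1* and *Bhlhe22* were not called. *Olig3* was at 10.9, 15.4, 19.9 and 15.2 CPM in the *Hox*-poor and at 5.01, 7.96 and 13.1 CPM in the *Hox*-rich libraries, a log2 fold change of -0.45 ± 0.23 (edgeR, adjusted p = 0.235). It was called at -0.85 when female mutant 3, a *Hox*-rich library, was included (adjusted p = 0.0568), and without female control 1 or 2 at -0.74 and -0.59 (adjusted p = 0.124 and 0.103). Over all single libraries left out it ran from -0.74 to -0.11, and within the female libraries alone it was at 0.12 (adjusted p = 0.856). *Neurod1* and *Bhlhe22* had log2 fold changes of 0.02 ± 0.10 and 0.15 ± 0.13.

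Marker lists of the regions and of other tissues were compared between the same classes. The DMH markers summed to 1039 to 1329 CPM in the *Hox*-poor and to 632 to 866 CPM in the *Hox*-rich libraries, and of these 7 genes 3 were called higher and 3 lower in the *Hox*-rich ones. The SP markers summed to 129 to 194 and 76.8 to 197 CPM, and 2 of 7 were lower. These were *Six3*, at 61.3 to 84.5 CPM in the *Hox*-poor and 29.2 to 47.2 CPM in the *Hox*-rich libraries, and *Emx2*, at 27.9 to 39.3 and 18.4 to 25.1 CPM, both named after their values were seen. *Neurog1*, *Neurog2* and *Neurod4*, the members lower in the *Hox*-rich pieces, were also higher in the SP than in the DMH of the controls. So were *Bhlhe22* and *Neurod1*, which were not called between the *Hox* classes (log2 fold changes of 0.15 and 0.02). A relation of the members' differences to SP content was not tested.

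Choroid plexus markers summed to 86.0 to 438 CPM in the *Hox*-poor and 440 to 666 CPM in the *Hox*-rich libraries (1 of 5 higher), and meninges markers to 688 to 847 and 863 to 1149 CPM (none of 6 called). Eye markers, mostly *Pou4f2*, summed to 50.4 to 55.2 and 34.4 to 47.6 CPM (1 of 6 tested lower), pituitary markers to 4.50 to 6.46 and 2.20 to 4.05 CPM (1 of 2 lower) and olfactory epithelium markers to 2.72 to 3.83 and 1.49 to 2.48 CPM (the 1 tested lower). The sums of the other lists overlapped between the classes. Sensory ganglion markers summed to 25.7 to 113 and 57.8 to 168 CPM (2 of 8 higher), with none of the 8 genes at 0 in all libraries of a class, and skeletal muscle markers to 5.71 to 7.86 and 5.93 to 8.34 CPM (2 of 5 higher). Of the cerebellar and rhombic lip markers 1 of 7 was higher and 1 lower, of the cartilage markers 1 of 3 was higher, and of the blood markers none of 6 was called. The part of these tissues in the members' differences was not tested.

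With the sex and replicate number as a block the calls of *Neurog2* (log2 fold change -0.67, adjusted p = 0.301) and *Neurod4* (-0.35, adjusted p = 0.368) were lost and *Bhlhe22* was called at 0.52 (adjusted p = 0.101), 4 members in all, where 650 genes (3.70%) were. Within one sex, with genotype in the model, the contrast rests on 1 *Hox*-poor library, whose spread is taken from the others. Among the females both mutants are *Hox*-poor, so that female control 1 stands against female controls 2 and 3. No member was called there, with log2 fold changes of -0.63 for *Neurog1* and *Neurog2*, 1.16 for *Atoh1*, -0.57 for *Neurod4*, 3.27 for *Atoh7* and 0.12 for *Olig3*, and 127 genes (0.757%) were called. Among the males male mutant 2 stands against male mutants 1 and 3. There 6 members were called, *Neurog1* at -1.23, *Neurog2* at -0.99, *Neurod4* at -0.78, *Olig3* at -0.97, *Atoh1* at 0.67 and *Atoh7* at 1.31 (adjusted p = 0.0830 to 0.197), and 703 genes (4.14%) were. Whether the sexes differ in this was not tested.

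In the SP libraries of the same embryos, with the class of an embryo's DMH piece fitted, 0 of 17348 genes were called by edgeR (364 genes, 2.10%, at an unadjusted p under 0.05). The 6 members tested there had log2 fold changes of -0.04 ± 0.19 (*Neurog1*), -0.05 ± 0.11 (*Neurog2*), 0.24 ± 0.24 (*Neurod1*), 0.32 ± 0.27 (*Neurod4*), -0.57 ± 0.35 (*Olig3*) and 0.23 ± 0.20 (*Bhlhe22*). *Atoh1* and *Atoh7* were too low in the SP to be tested. The difference between the DMH and SP fits was not tested.

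**Figure D3:**
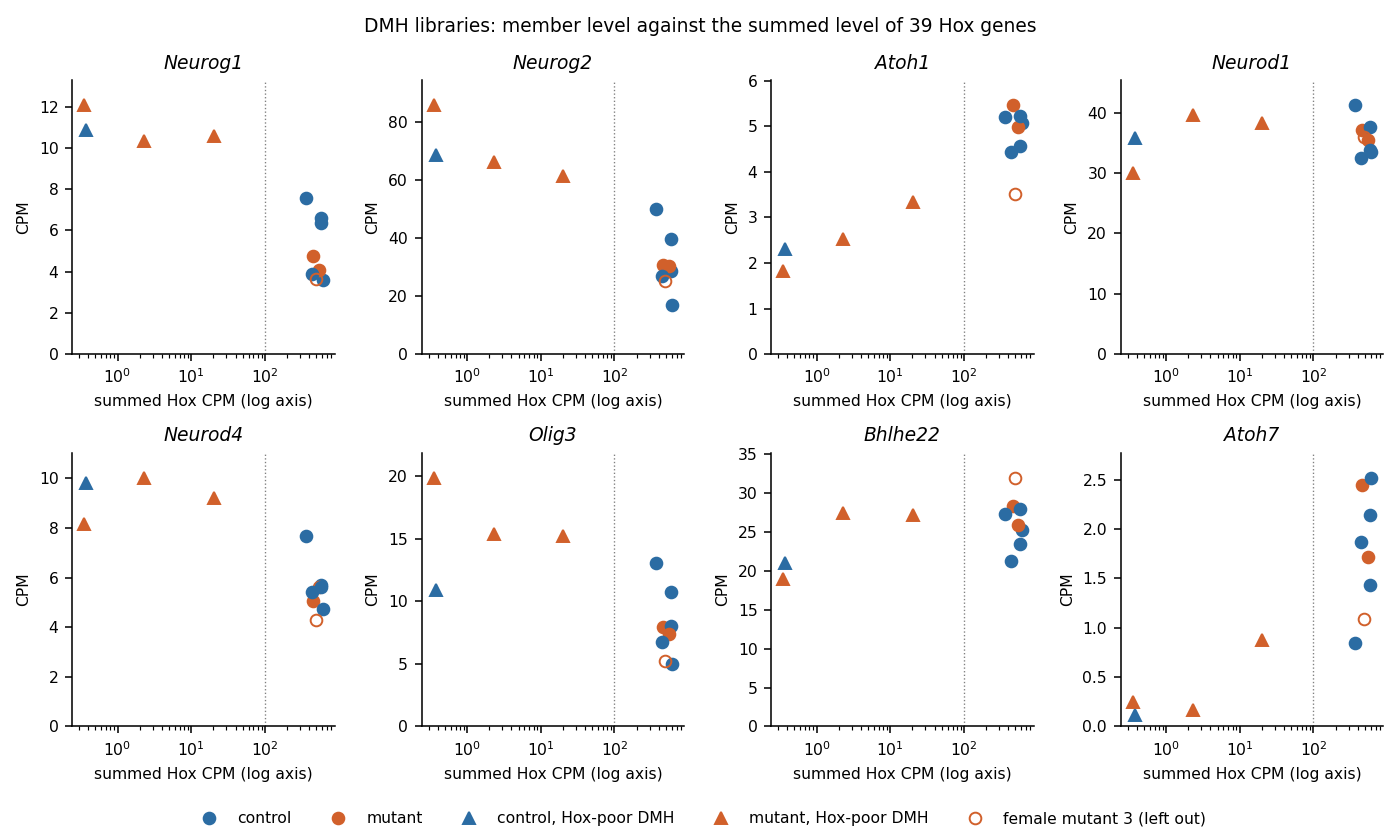
Level of each member in CPM in the 12 DMH libraries against the summed CPM of 39 *Hox* genes on a log axis. Blue marks controls, orange mutants, triangles *Hox*-poor libraries, the open circle female mutant 3, and the dotted line the border at 100 CPM. *Neurog1*, *Neurog2* and *Neurod4* are lower and *Atoh1* higher in all 7 filled *Hox*-rich points than in the 4 triangles.

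The third comparison asked whether the members depended on genotype. In the SP none of the 6 members tested was called by edgeR, none had an unadjusted p under 0.05, and DESeq2 called 0 as well. Of 17348 genes 0 were called, with 873 (5.03%) at an unadjusted p under 0.05. The log2 fold changes of mutants against controls ran from -0.15 ± 0.27 for *Olig3* to 0.16 ± 0.14 for *Neurog1*, and the libraries of the genotypes overlapped for every member. *Atoh1* and *Atoh7* were too low in the SP to be tested.

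In the DMH none of the 8 members was called by edgeR, where 9 of 17555 genes (0.0513%) were, and 2613 (14.9%) had an unadjusted p under 0.05. *Neurog2* was at 30.8, 61.5, 66.2, 85.9 and 30.3 CPM in the 5 mutants and at 17.1, 34.1 and 68.8 CPM in the controls (lowest, median and highest of 6). Its log2 fold change was 0.64 ± 0.24 (edgeR, adjusted p = 0.331). *Olig3* was at 7.96, 15.2, 15.4, 19.9 and 7.40 CPM in the mutants and at 5.01, 9.40 and 13.1 CPM in the controls, a log2 fold change of 0.60 ± 0.19 (edgeR, adjusted p = 0.331). Both had an unadjusted p under 0.05 and overlapped between the genotypes, and DESeq2 called *Olig3* alone (adjusted p = 0.169). Without male mutant 1, *Neurog2* and *Olig3* were called at 0.72 and 0.68 (adjusted p = 0.175 and 0.171), where 533 genes of the series (3.05%) were.

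*Atoh7* was at 2.45, 0.873, 0.164, 0.246 and 1.72 CPM in the mutants, with a log2 fold change of -0.70 ± 0.46, and *Atoh1* at 5.47, 3.34, 2.54, 1.82 and 4.99 CPM, with one of -0.41 ± 0.25. The 3 mutants with the low values of both are the *Hox*-poor ones. *Neurog1* and *Neurod4* had log2 fold changes of 0.45 ± 0.26 and 0.27 ± 0.17, and *Neurod1* and *Bhlhe22* of 0.01 ± 0.07 and 0.04 ± 0.10. None of these 6 had an unadjusted p under 0.05.

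With the *Hox* class added to the model, the estimates of 6 members lay nearer to 0 and those of *Bhlhe22* (0.12 ± 0.12) and *Neurod1* (0.01 ± 0.09) did not. *Neurog2* went to 0.24 ± 0.18, *Olig3* to 0.35 ± 0.21, *Neurog1* to -0.03 ± 0.18, *Neurod4* to -0.06 ± 0.12, *Atoh1* to 0.07 ± 0.15 and *Atoh7* to -0.00 ± 0.26, all with an adjusted p of 1 by edgeR. Among the *Hox*-rich libraries alone, 2 mutants and 5 controls, *Neurog2* was at 0.31 ± 0.22 and *Atoh7* at -0.04 ± 0.23. With female mutant 3 added there, *Neurog2* was at -0.07 ± 0.29. *Olig3* was at 7.96 and 7.40 CPM in these 2 mutants, at 5.25 CPM in female mutant 3 and at 5.01 to 13.1 CPM in the *Hox*-rich controls. Over all alternatives the DMH estimate of *Olig3* ran from -0.27 to 0.69, that of *Neurog1* from -0.38 to 0.58 and that of *Neurod4* from -0.23 to 0.36.

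**Figure D4:**
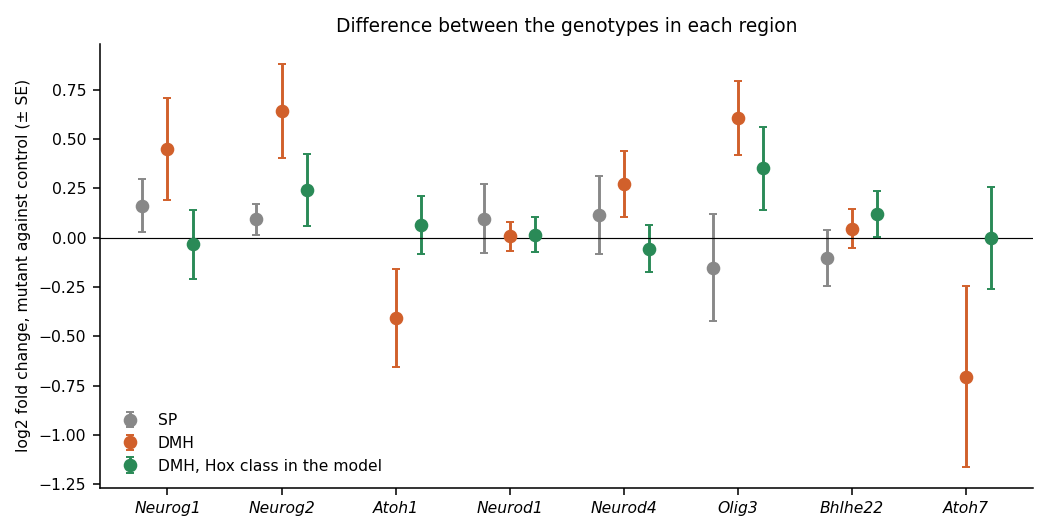
Log2 fold change of mutants against controls (± SE) in the SP (grey), in the DMH (orange) and in the DMH with the *Hox* class in the model (green). *Atoh1* and *Atoh7* were not tested in the SP. The orange points of *Neurog1*, *Neurog2*, *Atoh1*, *Neurod4*, *Olig3* and *Atoh7* lie farther from 0 than the green ones.

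Within each sex and region, in 4 comparisons, no member was called by edgeR. In the male SP, female SP and male DMH no member had an unadjusted p under 0.05, and 0, 3 and 4 genes of the series were called (0%, 0.0181% and 0.0236%). In the female DMH, where 1 gene (0.00596%) was called, *Atoh1* and *Olig3* had an unadjusted p under 0.05. *Atoh1* was at 2.54 and 1.82 CPM in the female mutants and at 2.31, 5.20 and 5.22 CPM in the female controls, a log2 fold change of -0.96 ± 0.37 (edgeR, adjusted p = 0.555). *Olig3* was at 15.4 and 19.9 against 10.9, 13.1 and 10.7 CPM, a log2 fold change of 0.62 ± 0.14 (edgeR, adjusted p = 0.551).

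Both female mutants used here are *Hox*-poor, as is female control 1 among the controls. Without that control 5 members were called in the female DMH, among 1117 genes (6.63%). *Neurog1*, *Neurog2* and *Olig3* were then higher in the mutants at 0.67, 0.78 and 0.59 (adjusted p = 0.0686, 0.0496 and 0.105), and *Atoh1* and *Atoh7* lower at -1.25 and -2.42 (adjusted p = 0.0401 and 0.0524). In that fit every mutant is *Hox*-poor and every control *Hox*-rich, so genotype and *Hox* content cannot be told apart. No member was called for an interaction of genotype and sex in either region, where 0 genes were called by edgeR (383 and 351 at an unadjusted p under 0.05) and DESeq2 called 3 and 13 genes.

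The other genes of the pathway were taken from lists of 47 genes. Between *Hox*-rich and *Hox*-poor DMH libraries 11 of these 47 were called, 2 higher and 9 lower, where 6.89% of all genes were, with a median log2 fold change of -0.21 against 0.00 for all genes. Among further neural bHLH factors, *Bhlhe23* and *Neurog3* were lower at -0.64 ± 0.12 and -1.20 ± 0.55, the latter from at most 0.702 CPM. *Olig1*, a factor of the oligodendrocyte lineage, and *Neurod2*, of differentiating neurons, were higher at 0.59 ± 0.13 and 0.54 ± 0.10.

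Among 10 Notch ligands, receptors and modifiers, *Dll3* and the glycosyltransferase gene *Mfng* were lower in the *Hox*-rich libraries at -0.60 ± 0.09 and -0.55 ± 0.19 (edgeR, adjusted p = 0.00485 and 0.0952), and 8 were not called. *Dll3* was at 23.1 to 29.02 CPM in the *Hox*-poor and at 11.7 to 20.7 CPM in the *Hox*-rich libraries. Of 13 neurogenic targets 4 were lower, *Insm1* at -0.62 ± 0.10, *Eomes* at -0.73 ± 0.13, *Lhx9* at -0.52 ± 0.08 and *Barhl2* at -0.52 ± 0.10, and none higher. *Insm1*, which is switched on in newborn neurons, was at 80.1 to 93.3 CPM in the *Hox*-poor and at 38.7 to 63.7 CPM in the *Hox*-rich libraries. *Barhl2* was named after its values were seen. None of the 3 E proteins, 4 Id genes and 6 *Hes* and *Hey* effectors was called.

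**Figure D5:**
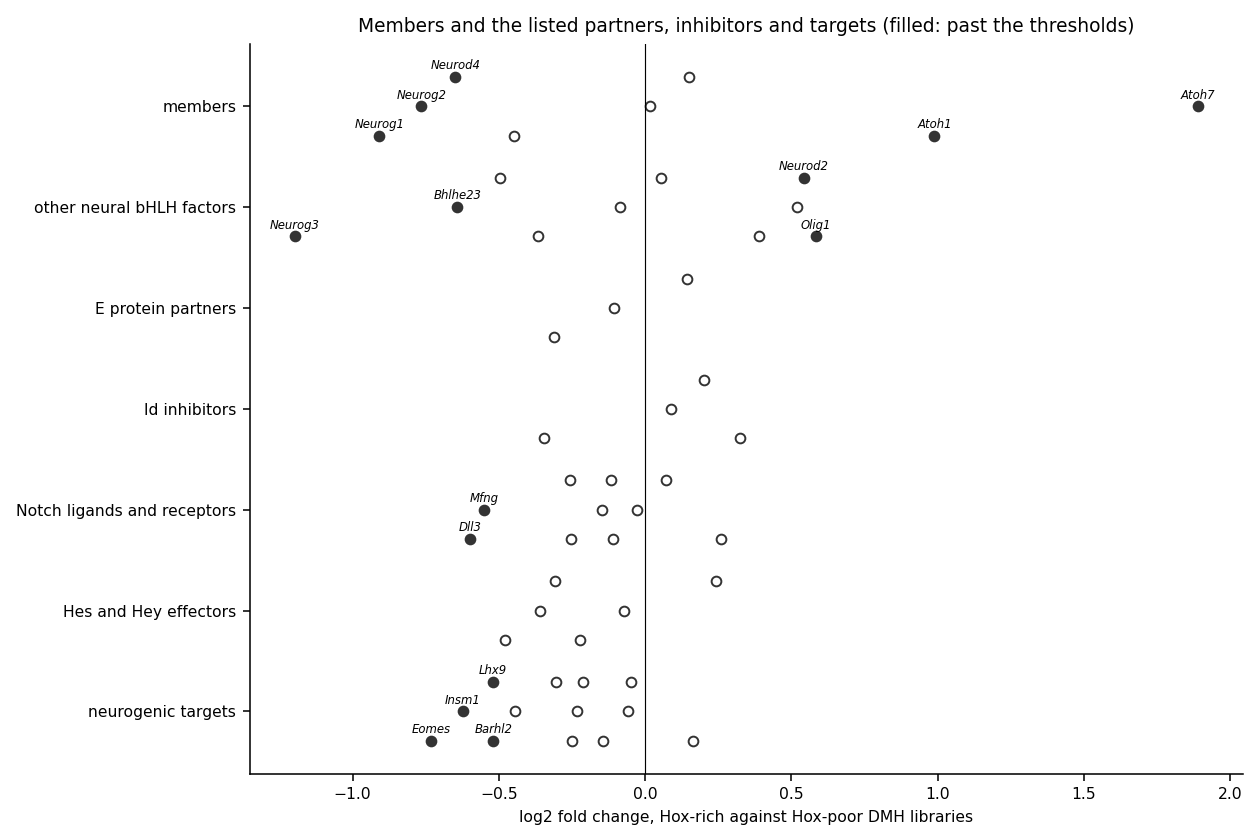
Log2 fold change of *Hox*-rich against *Hox*-poor DMH libraries for the members and genes of the 6 lists, 1 point per gene, filled and named where past both thresholds. The vertical offset within a list only separates the points. The filled points of the Notch and target lists all lie below 0.

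Between the regions of the control embryos 29 of 45 listed genes tested were called, 10 higher and 19 lower in the DMH, where 36.2% of all genes were, 21.4% higher and 14.8% lower. *Neurod6* and *Neurod2*, factors of cortical excitatory neurons, were lower at -4.20 ± 0.11 and -3.34 ± 0.12, and *Eomes*, the marker of cortical intermediate progenitors, at -5.12 ± 0.16. *Pou4f1*, a factor of sensory and midbrain neurons, was higher at 6.56 ± 0.32, *Bhlhe23* at 5.69 ± 0.23 and *Lhx9* at 2.17 ± 0.16. The E proteins *Tcf4* and *Tcf3* were lower at -1.94 ± 0.06 and -1.17 ± 0.07. *Id1* and *Id3* were higher at 0.84 ± 0.09 and 0.79 ± 0.07 and *Id2* lower at -1.04 ± 0.09. *Notch1*, *Notch2*, *Dll1*, *Hes1*, *Hey1* and *Nrarp* were lower, between -0.99 (*Dll1*) and -0.68 (*Nrarp*), and *Jag2* was higher at 1.00 ± 0.08. Of the 10 Notch ligands, receptors and modifiers 5 were not called, and of the 6 *Hes* and *Hey* effectors 3 were not.

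In the mutants 31 of these 47 genes were called between the regions, 13 higher and 18 lower, where 36.6% of all genes were. Mutants against controls, none of the listed genes tested was called by edgeR in the SP (43 tested) or in the DMH (47 tested).

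The genes whose levels ran most like those of a member were ranked by Spearman's rho over the 12 DMH libraries, among 14527 genes with a mean of at least 1 CPM. For *Neurog2* these were *Ilf2* and *Maf1* (rho of 1 each) and *Brd3* (0.993), for *Neurog1* *Atg13*, *H1fx* (0.993 each) and *Copg2* (0.986), and for *Atoh7* *Lacc1* (0.993), *Clgn* and *Fam124a* (0.986 each). *Atoh1* was most like *Mfhas1* (0.951), *Lrrc4* (0.937) and *Arid1b* (0.930), and *Neurod4* like *H3f3b* (0.979), *Mapk10* (0.972) and *Commd9* (0.965). For *Olig3* they were *Gpr50*, *Proser1* and *Rbmxl1* (0.979 each), for *Neurod1* *Manbal* (0.944), *Prmt6* (0.895) and *Nkap* (0.874), and for *Bhlhe22* *E330009J07Rik* (0.916) and *Tcf24* (0.895). The 12 libraries share the *Hox* classes, so these are descriptions and carry no test. In the SP, over 12 libraries and 14051 genes, *Bhlhe22* itself was among the 3 genes most like *Neurod1* (0.944), beside *Nfix* (0.951) and *Gabra2* (0.944).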

How the data were processed

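RNA of the SP and DMH of 12 mouse embryos was sequenced by the authors as stranded, polyA-enriched libraries, 3 per sex, region and genotype. The submitters' processing notes name cutadapt 2.4, STAR 2.6.1d, edgeR and the builds mm10 and GRCm38.p6, and the gene annotation release is not given in the sources used here. The deposited values are raw counts of fragments per gene by STAR, without normalization, in 3 columns. Of these, the sense-strand column of dUTP libraries entered the tests, the column that ignores strand was an alternative, and 1 column entered no test. Lines that name no gene held 17.3 to 25.9% of the fragments and were left out. Of 54446 gene identifiers, 37 had no symbol.

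Tests used the quasi-likelihood fit of edgeR 4.0.16 in R 4.3.3 (robust, with TMM scaling and the filterByExpr filter) on 22 libraries. Female mutant 3 was left out and the call thresholds (FDR 0.2, log2 fold change 0.5) were set as in the paper. Fits of both sexes held sex as a covariate, and the *Hox* fit held sex and genotype. DESeq2 1.42.0 was an alternative. CPM were normalised over 24 libraries, and libraries from separate embryos are the replicates. Intervals and floors cover counting error only, since PCR copies are not independent molecules.

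The SP and DMH libraries of an embryo come from the same animal, as the design text states, and their deviations from the group means correlated at 0.0698 to 0.429 over 12 pairs. The embryo as a block changed no call of a member between the regions. No pair of replicates was a copy (lowest chi-square per gene 9.62 over 24 pairs). Named were all 8 members, *Tfap2b*, up to 3 called genes per list and direction with the smallest p in comparisons of both sexes, and the 3 genes with the highest Spearman's rho to a member, of which the text gives only some for the SP. Results of a few listed genes are not reported here. The members, lists, tests and *Hox* classes were chosen with earlier results of these data known. Figures were drawn with matplotlib 3.10.9.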

Additional observations from a re-analysis of the deposited data

Results flagged for a closer look

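Each member was checked in the control and mutant libraries of each region, 32 checks in all. In 6 of these the highest or lowest library stood apart from the others. Chance gives about 1 in 20 for independent checks. These checks reuse the same libraries, and those of *Atoh1* in the SP rest on values under the floor, so that rate need not hold. In the SP of the mutants, male mutant 1 had the highest *Neurod1* level at 142 CPM, where the others were at 60.0 to 75.1 CPM, and the highest *Neurod4* level at 19.1 CPM, against 8.64 to 12.5 CPM. In the same library 11 further neural bHLH factors summed to 1733 CPM (952 to 1283 in the 11 other SP libraries) and SP markers to 1017 CPM (674 to 804). Notch ligands and receptors summed to 378 CPM there (503 to 692 in the others) and *Hes* and *Hey* effectors to 159 CPM (177 to 275).

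*Atoh1* in the DMH of the controls was lowest in female control 1 at 2.31 CPM, with the others at 4.44 to 5.22 CPM. That library is the single *Hox*-poor control. In the SP *Atoh1* was highest at 0.0328 CPM in female control 1 and at 0.0254 CPM in female mutant 3, with all other libraries of each group at 0 counts, so each rests on a value under the floor of 3 counts.

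Female mutant 3, which entered no main comparison, had *Olig3* at 3.60 CPM in the SP, apart from the 5 other mutants (0.753 to 1.80 CPM) and above all 6 controls (0.805 to 2.13 CPM). Its DMH library, with 1783 CPM of cartilage markers, had *Bhlhe22* at 31.9 CPM, above all 6 controls (21.01 to 27.9 CPM).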

How the results depend on the processing

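Of 88 member values, 72 kept their side of the thresholds under every alternative, and no called value changed sign. Among the values not called, 45 had another sign in at least 1 alternative. Between mutant and control DMH libraries, 0 members became 1 with DESeq2 (0.291% of all genes), and 0 to 2 with single embryos left out. In the female DMH, 0 became 3 without a filter on low counts (*Atoh1*, *Olig3* and *Atoh7*, beside 1.81% of all genes), 1 with DESeq2 (*Olig3*, beside 0.498%) and 0 to 5 with single embryos left out. Between the *Hox* classes, 5 members became 0 with the log2 *Hox* level as a continuous measure, where the fold is per doubling, and *Neurog1*, *Neurog2*, *Atoh1*, *Neurod4* and *Atoh7* stayed under the FDR (adjusted p = 0.113, 0.130, 0.000341, 0.0731 and 0.00121). They became 0 with female and 6 with male libraries only, fits chosen after seeing the data, as were those without the genotype term (*Olig3* called at -0.68, beside 9.50% of all genes) and with female mutant 3 among *Hox*-rich libraries. At an FDR under 0.05 the call of *Neurog2* between the *Hox* classes was lost (adjusted p = 0.0512).

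Control and mutant embryos of one number share a number alone, with correlations of -0.155 to 0.541 in the DMH and 0.0407 to 0.255 in the SP. With the number as a replicate block, 0 members were called between genotypes in the DMH, and the block changed no other member call than those between the *Hox* classes given above. In the DMH *Neurog2* was then at 0.56 (adjusted p = 0.392).

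Counts over all genes moved more. From 9 between genotypes in the DMH they ran from 2 to 533 over the alternatives, with 51 by DESeq2, from 1 in the female DMH to 0 and 1117, and from 1210 between the *Hox* classes to 32 (continuous measure) and 5213 (no fold threshold), with 703 in the males alone and 2335 (13.4%) when female mutant 3 was included. Without a fold threshold 6348 and 6455 genes between the regions became 13656 and 11633. The largest counts were 27 for genotype in the SP, 52 in the female SP, 8 in the male SP, 17 in the male DMH, 6 for region by genotype, and 3 and 13 for genotype by sex in the SP and DMH. At these depths *Atoh1* and *Atoh7* in the SP lie near the floor.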

Other observations

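In the SP, *Neurog1* levels were compared between libraries labelled male and female, a fit chosen after seeing the data, and the call depended on female mutant 3. Without that embryo *Neurog1* was at 11.2, 12.8 and 13.7 CPM in 5 female libraries (lowest, median and highest) and at 6.21, 8.34 and 11.4 CPM in 6 male ones, which met at male mutant 2. The log2 fold change of males against females was -0.61 ± 0.14 (edgeR, adjusted p = 0.0676), where 955 of 17348 genes (5.50%) were called. Female mutant 3 had 9.25 CPM of *Neurog1*, within the range of the male libraries. With it included the log2 fold change was -0.52 ± 0.14 (edgeR, adjusted p = 0.215) and the call was lost, and 2 of 17287 genes (0.0116%) were called. Without female mutant 3, *Neurog2* was at -0.24 ± 0.08 (adjusted p = 0.109) and *Bhlhe22* at 0.44 ± 0.14 (adjusted p = 0.103), both under the fold threshold. With it they were at -0.18 ± 0.09 and 0.43 ± 0.13 (adjusted p = 0.281 and 0.215). Female control 2, whose SP library held 133 CPM of Y-linked transcripts, had 13.4 CPM of *Neurog1* and is itself one of the 5 female libraries above. The comparison was not repeated with sex taken from the Y-linked transcripts.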
